A study of Rattus norvegicus with 4 samples.

Results

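The collagen chain genes encode the alpha chains that wind in triplets into the collagens of the extracellular matrix. All rows of the deposited rat count table were taken whose symbol is a collagen chain symbol, or whose description is collagen of a numbered type with a chain name, whatever their count. This gave 45 of 32883 genes, 42 by symbol and 3 by description, the latter being Col6a3 and both annotated copies of Col1a2. Of these, 26 had enough counts to be tested and 19 did not. RNA was sequenced from HSC-T6, an immortal line of rat hepatic stellate cells, as 2 untreated libraries and 2 libraries of cells given GRK1, the ginsenoside Rk1 of the series title and a saponin of processed ginseng. All 4 libraries come from the same cell line, no other agent or allele is named, and the labels give no dose, duration, passage or vehicle.

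Collagen chains fall into families by how their trimers assemble. Fibrillar chains build the banded fibres that accumulate in liver scars, type IV chains build the sheet of basement membranes, type VI chains form beaded filaments, and fibril-associated chains sit on the surface of fibres. Hepatic stellate cells are the main source of fibrillar collagen in the injured liver, where their activation to myofibroblasts is accompanied by a large rise of type I and type III collagen.

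Library totals ranged from 18008586 to 20430930 counts, and values are given as CPM, counts scaled to a common library size after correction for composition. The 2 libraries of a group are n = 2 throughout, and no label tells whether separate cultures were used, so a p-value here reflects the spread of these 4 libraries alone, possibly technical. Of 10 stellate cell markers, 8 were tested, and Acta2, Lox and the members Col1a1 and Col3a1 fell, while Des, Vim, Pdgfra and Pdgfrb did not pass. Vim stood at 1176 to 1279 CPM and Des at 5.06 to 7.46 CPM. Acta2, the smooth muscle actin of activated stellate cells, was at 3.60 and 3.08 CPM untreated and 0.891 and 0.329 CPM with Rk1, with no overlap (-2.44 ± 0.39, adjusted p = 0.0047 in edgeR's quasi-likelihood test). It had 73 and 56 counts untreated and 16 and 6 with Rk1, the last of these under the minimum of 10 in the low-count filter. The Rk1 libraries alone would not have passed it. Its log2 fold change was -3.32 without Rk1 replicate 1 and -1.90 without Rk1 replicate 2. The markers summed to 20955 and 19789 CPM untreated and 13539 and 13438 CPM with Rk1, most of it Col1a1 and Col3a1, and Lrat and Reln, genes of vitamin A storage and of quiescent stellate cells, were at 0. Summed markers of hepatocytes stood at 49.0 to 53.1 CPM, nearly all of it Tf, those of endothelial cells at 0.668 to 0.988 CPM and those of macrophages at 1.13 to 1.95 CPM. The 4 markers of bile duct cells summed to 7.29 and 9.07 CPM in untreated and 2.78 and 2.58 CPM in Rk1 libraries, nearly all of it Sox9, with Krt19, Krt7 and Epcam at 4 counts or fewer in each library. The part of the Acta2 and Sox9 differences in the collagen values was not tested.

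Collagen transcripts made up a smaller part of the libraries after Rk1. In untreated cells they held 2.16% and 2.06% of all counts, and with Rk1 1.41% and 1.42%, a mean of 2.11% ± 0.0707 (SD, n = 2) against 1.41% ± 0.00668. The groups did not overlap, but an exact permutation test of 2 against 2 libraries cannot give a two-sided p below 0.333, which is the value found. In a bulk library, fewer cells making collagen and less collagen RNA per cell cannot be told apart. A few chains carried most of these counts: Col1a1, Col3a1 and Col5a2 together held 86.2% of collagen counts in untreated and 82.9% in Rk1 libraries. Col1a1 kept nearly the same part of collagen counts, at 57.0% and 56.8%, whereas Col3a1 went from 22.9% to 18.6% and Col5a2 from 6.35% to 7.53%.

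**Figure D1:**
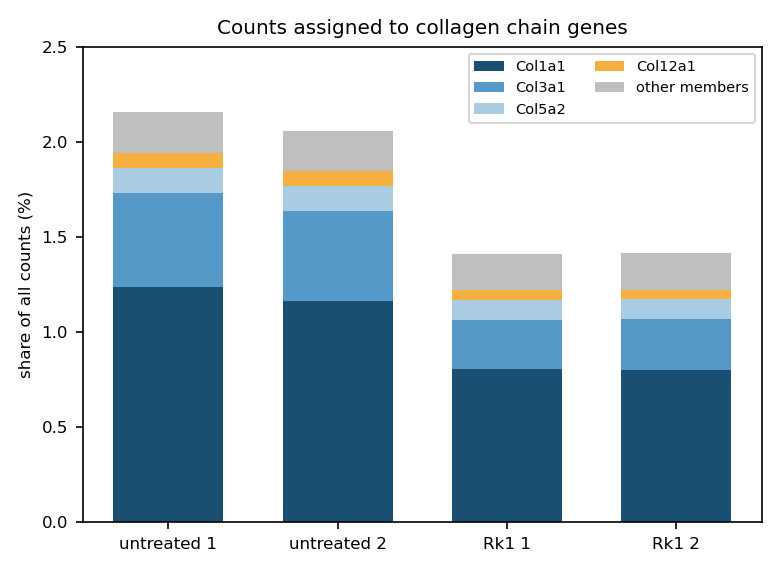
Share of all counts assigned to collagen chain genes (y axis, percent) in each of the 4 libraries (x axis), stacked by gene. Both untreated bars (2.16% and 2.06%) stand above both Rk1 bars (1.41% and 1.42%), and Col1a1 is the largest segment in each.

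In edgeR's quasi-likelihood test over 12316 genes, 14 of the 26 tested collagen chain genes passed as lower with Rk1, 3 as higher and 9 did not pass a Benjamini-Hochberg adjusted p of 0.05. Col1a2 is counted in both directions, as 1 annotated copy is among the 14 and the other among the 3. Its change is uncertain, as described below. The 3 include Col4a3, which had 8 and 5 counts untreated, was testable only through the Rk1 libraries and did not pass without untreated replicate 2 (0.051) or without Rk1 replicate 1 (0.057). Among all tested genes 22.0% passed, with 10.5% lower and 11.5% higher. A fall of at least 2-fold was called for 6 members, 1 of them a Col1a2 copy, beside 1.23% of all tested genes. The median log2 fold change of the 26 genes was -0.41, beside 0.00 for all tested genes. Both Rk1 libraries lay below both untreated libraries for 16 members, which holds for 30.9% of all tested genes, and above them for 5, which holds for 32.1%. With 1 library left out, the members called were not always the same. Col4a3, Col4a5 and the lower Col1a2 copy each changed side of the threshold in such a fit, though each kept its direction.

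**Figure D2:**
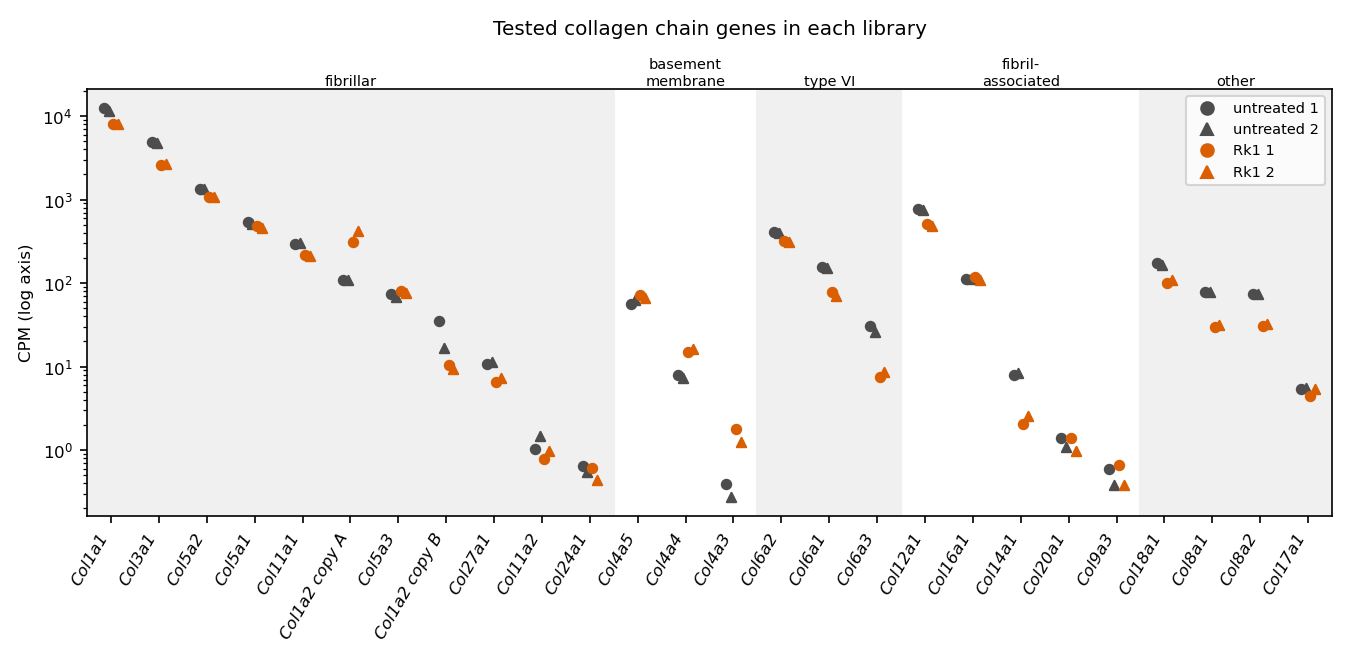
CPM (log axis) of the 26 tested collagen chain genes in each library, grouped by family and ordered by untreated level, with grey symbols for untreated and orange for Rk1 libraries. Col1a1 stands highest, at 12485 and 11615 CPM untreated and 8065 and 7969 CPM with Rk1, and the type VI and type VIII chains separate by group in every library.

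Most of the abundant fibrillar chains fell, and by moderate amounts. Of 12 fibrillar genes 11 were tested, and 6 fell, 1 rose and 4 did not pass, with a summed level of 19837 and 18715 CPM untreated and 12838 and 12876 CPM with Rk1. The gene that rose and 1 of the 6 that fell are the annotated copies of Col1a2, whose change is uncertain. Col1a1 (ENSRNOG00000003897; Rnor_6.0 chromosome 10, 82745801 to 82762789, plus strand), the alpha 1 chain of type I collagen, was at 12485 and 11615 CPM in untreated and 8065 and 7969 CPM in Rk1 libraries. That is a 1.5-fold fall with no overlap between the groups (log2 fold change -0.59 ± 0.04 SE, adjusted p = 1.0e-04). Col3a1 (ENSRNOG00000003357; chromosome 9, 52023295 to 52059217, plus strand), whose trimers mix with type I in early scar fibres, was at 4938 and 4752 CPM untreated and 2595 and 2660 CPM with Rk1. Its 1.84-fold fall (-0.88 ± 0.03, adjusted p = 1.9e-05) moved the ratio of Col1a1 to Col3a1, per kilobase of exon, from 2.07 and 1.999 to 2.54 and 2.45.

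The type V and XI chains are minor fibrillar chains, and type V is built into type I fibres and limits their width. Col5a2, the type V alpha 2 chain, was at 1356 and 1330 CPM untreated and 1065 and 1063 CPM with Rk1 (-0.34 ± 0.04, adjusted p = 8.7e-04). Its partner Col5a1 was at 534 and 509 CPM untreated and 480 and 457 CPM with Rk1 and narrowly missed the threshold (-0.16 ± 0.05, adjusted p = 0.051), which DESeq2 (0.040) and limma-voom (0.046) passed. Col5a1 did not pass in 6 of 12 alternatives, among them edgeR with no low-count filter (0.069) and each fit with 1 library left out. Its log2 fold change was -0.118 without untreated replicate 1 and -0.197 without untreated replicate 2. Col5a3, a type V chain with a restricted tissue range, was at 74.4 and 68.7 CPM against 81.1 and 75.7 CPM (0.13 ± 0.06, adjusted p = 0.16). The 3 genes of type V thus spanned a called fall, an uncalled lower value and an uncalled higher value. Col11a1, which nucleates fibrils in cartilage and is also made by activated fibroblasts, fell from 293 and 300 CPM to 220 and 211 CPM (-0.46 ± 0.04, adjusted p = 5.7e-04). Col27a1, a fibrillar chain best known from cartilage, fell from 10.7 and 11.4 CPM to 6.62 and 7.30 CPM (-0.67 ± 0.12, adjusted p = 0.0076). Col11a2 and Col24a1 were detected at 8 to 27 counts a library and did not pass (adjusted p = 0.32 and 0.80).

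Col1a2, the alpha 2 chain of type I collagen, gave opposite values at its annotated copies. Both lie on the plus strand of Rnor_6.0 chromosome 4 under one description and one placeholder symbol, 1.97 Mb apart. Copy A (ENSRNOG00000011292; 31534225 to 31569151) had 2216 and 1993 counts in untreated and 5638 and 7722 in Rk1 libraries, or 109 and 110 CPM against 314 and 424 CPM. The Rk1 libraries were both above the untreated ones, and the fit gave a 3.37-fold rise (1.75 ± 0.13, adjusted p = 1.7e-04). Copy B (ENSRNOG00000052925; 29529854 to 29564768) had 720 and 306 counts untreated and 190 and 171 with Rk1, a fall of 1.39 ± 0.31 on the log2 scale (adjusted p = 0.019). The untreated libraries differed from each other at copy B by more than they did at copy A, with 35.5 and 16.8 CPM. Without untreated replicate 1 the fall at copy B was 0.75 on the log2 scale, and it did not pass by DESeq2 (0.066), with robust dispersions (0.25) or without Rk1 replicate 2 (0.059). Summed into 1 row, the copies had 145 and 126 CPM untreated and 324 and 433 CPM with Rk1, a 2.79-fold rise (1.48 ± 0.13, adjusted p = 4.0e-04). Per kilobase of exon, Col1a1 stood 64.8 and 69.7 times above the summed copies before and 19 and 14.1 times above them with Rk1, although the common type I trimer holds alpha 1 and alpha 2 chains together. Reads that match both copies can be divided or dropped in counting, their handling is not given in the sources used here, and so the level and change of Col1a2 are uncertain.

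**Figure D3:**
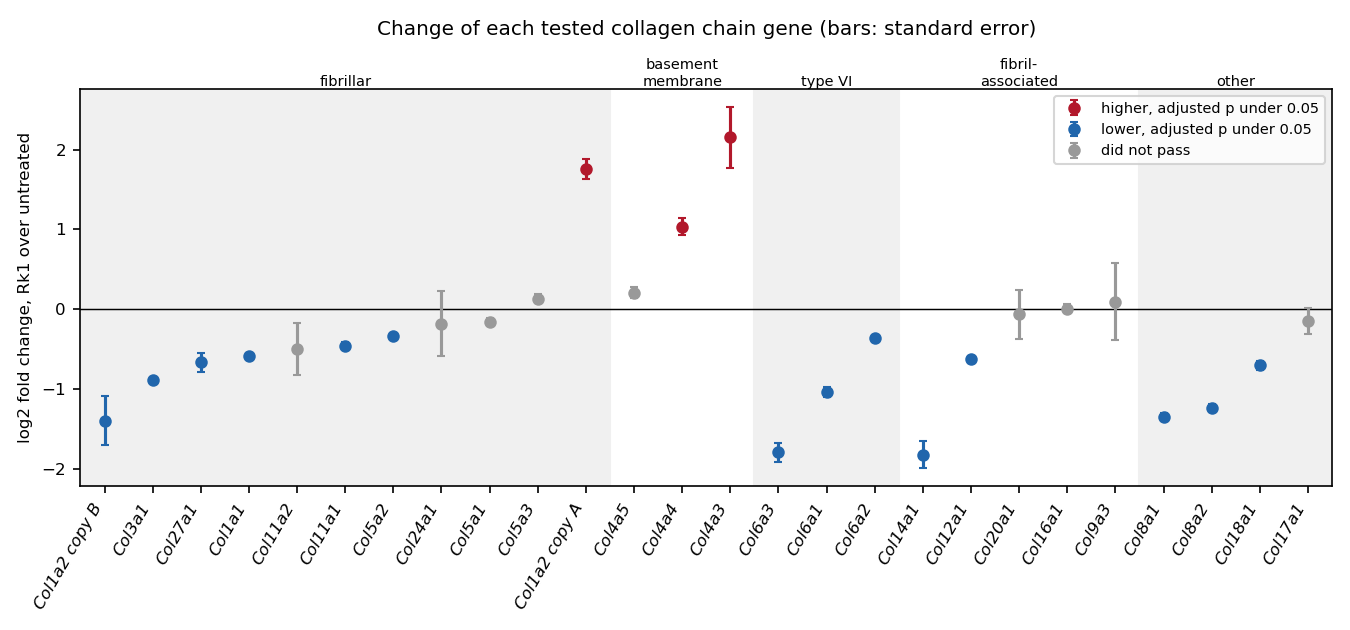
Log2 fold change of Rk1 over untreated (y axis) with its standard error for the 26 tested collagen chain genes, grouped by family, with blue for called lower, red for called higher and grey for those that did not pass. The 3 tested type VI chains are all blue, with Col6a3 at -1.79, and the 2 called basement membrane chains are red, with Col4a3 at 2.15.

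The 3 type VI chains that were expressed all fell, and by unequal amounts. Type VI collagen needs alpha 1, alpha 2 and one more chain, most often alpha 3, to form its filaments around cells. Col6a1 fell 2.06-fold from 155 and 152 CPM to 78.8 and 70.6 CPM (-1.04 ± 0.06, adjusted p = 6.9e-05). Col6a2, which lies 97.9 kb from Col6a1 on the same strand of chromosome 20, fell 1.29-fold from 407 and 397 CPM to 318 and 307 CPM (-0.36 ± 0.04, adjusted p = 0.0013). Col6a3 (ENSRNOG00000019648; chromosome 9, 97926787 to 98004546, minus strand) is listed as a processed transcript without its usual symbol. It fell 3.46-fold, from 30.4 and 26 CPM to 7.57 and 8.72 CPM (-1.79 ± 0.12, adjusted p = 1.2e-04). No library of one group reached the range of the other for any of these genes. The ratio of Col6a1 to Col6a2 per kilobase was 0.457 and 0.460 untreated and 0.298 and 0.276 with Rk1, so the chains did not move in step. That of Col6a3 to Col6a2 was 0.0305 and 0.0267 against 0.00971 and 0.0116, and the chain that completes the trimer was thus counted far below its partners in all libraries. The remaining type VI genes, Col6a4, Col6a5 and Col6a6, had 2 counts or fewer in each library.

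Among the fibril-associated collagens, Col12a1 and Col14a1 fell and 3 tested genes did not pass. These chains carry interrupted triple helices and link fibres to other matrix proteins. Col12a1, the most abundant of them and a gene of tendon and of stressed connective tissue, fell 1.55-fold from 778 and 757 CPM to 514 and 478 CPM (-0.63 ± 0.05, adjusted p = 2.1e-04). Col14a1 (ENSRNOG00000026415; chromosome 7, 95074236 to 95273298), which regulates fibril growth, had 162 and 151 counts untreated and 37 and 46 with Rk1. This was a 3.54-fold fall (-1.83 ± 0.17, adjusted p = 4.8e-04), the greatest called fall, within a standard error of that of Col6a3. Col16a1 was at 113 and 113 CPM untreated and 119 and 109 CPM with Rk1, and the Rk1 libraries lay on either side of the untreated ones (0.01 ± 0.05, adjusted p = 0.95). Col20a1 and Col9a3 stood at 0.384 to 1.39 CPM with overlapping groups (adjusted p = 0.91 and 0.92).

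The type VIII pair fell together. Type VIII collagen is a short-chain, network-forming collagen of vessel walls and of the corneal basement layer, made of alpha 1 and alpha 2 chains. Col8a1 (ENSRNOG00000039668; chromosome 11, 44877859 to 45007891, plus strand) was at 78.1 and 78.2 CPM untreated and 30.2 and 31.3 CPM with Rk1, a 2.54-fold fall (-1.34 ± 0.05, adjusted p = 1.7e-05). Col8a2 (ENSRNOG00000010841; chromosome 5, 144308611 to 144335172, plus strand) was at 74.5 and 74.0 CPM untreated and 30.8 and 32.1 CPM with Rk1, a 2.36-fold fall (-1.24 ± 0.05, adjusted p = 2.1e-05). Although they lie on separate chromosomes, their ratio per kilobase stayed near 1, at 1.01 and 1.02 untreated and 0.947 and 0.945 with Rk1. Because they moved together, the 250 bases before each start are shown, from RefSeq on GRCr8, 5′ to 3′ on the gene's strand, with capitals for matches to the GC box GGGCGG on either strand.
Col8a1, chr11:56246532-56246781, plus strand: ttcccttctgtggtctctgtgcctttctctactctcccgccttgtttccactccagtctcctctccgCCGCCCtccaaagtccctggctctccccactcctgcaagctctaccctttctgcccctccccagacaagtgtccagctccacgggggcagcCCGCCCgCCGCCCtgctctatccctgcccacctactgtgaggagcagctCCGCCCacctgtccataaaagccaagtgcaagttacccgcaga
Col8a2, chr5:143870519-143870768, plus strand: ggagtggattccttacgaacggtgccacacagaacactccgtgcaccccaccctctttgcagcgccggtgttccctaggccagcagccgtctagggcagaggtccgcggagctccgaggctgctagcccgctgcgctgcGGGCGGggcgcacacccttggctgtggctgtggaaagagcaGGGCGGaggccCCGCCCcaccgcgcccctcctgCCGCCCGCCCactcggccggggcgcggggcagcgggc
Col8a1 holds 4 matches and Col8a2 holds 5, of which a pair overlaps near the start. G and C make up 62% and 73.2% of these windows, and no background was taken for the number of matches in a window. The search on both strands also covered the promoter element CCAAT, the TATA box with the letters TATAAA, and the core of the hypoxia response element with the letters ACGTG, none of which contains another. No match to these other motifs was found in either window. Of 25 tested chains 19 had a window by symbol, and 13 of them (68.4%) hold GGGCGG, beside 59% of 10012 windows of tested genes and 30.5% of all 33469 windows. ACGTG is in 2 of the 19 (10.5%), beside 21.8% of windows of tested genes and 16.6% of all windows. CCAAT is in 5 of the 19 (26.3%) and TATAAA in 2 (10.5%), beside 35.8% and 6.21% of windows of tested genes. A chain was counted once if any of its windows held the motif, while the other shares count windows, so the units differ. These matches are descriptions of letters and not binding sites.

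Of the other non-fibrillar chains, Col18a1 fell and Col17a1 did not pass. Col18a1, a basement membrane zone collagen whose end fragment is endostatin, was at 173 and 167 CPM untreated and 99.8 and 109 CPM with Rk1 (-0.70 ± 0.05, adjusted p = 2.4e-04). Col17a1, a transmembrane collagen of epithelial anchoring junctions, was at 5.32 and 5.50 CPM untreated and 4.45 and 5.32 CPM with Rk1 (-0.14 ± 0.16, adjusted p = 0.56).

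In the basement membrane family Col4a4 rose, Col4a3 was called from few counts, and Col4a5, which joins them in the mature network of kidney glomeruli, did not pass. Col4a4 (ENSRNOG00000014851; chromosome 9, 88232455 to 88357182, minus strand) had 160 and 132 counts untreated and 267 and 294 with Rk1, or 7.88 and 7.26 CPM against 14.9 and 16.1 CPM. It rose 2.05-fold with no overlap (1.03 ± 0.11, adjusted p = 8.6e-04). Col4a3 (ENSRNOG00000015365; chromosome 9, 88357556 to 88485830, plus strand) had 8 and 5 counts untreated and 32 and 23 with Rk1. Its fitted value was 4.44-fold higher (2.15 ± 0.38, adjusted p = 0.0078, and 0.0054 with no low-count filter), but it did not pass without untreated replicate 2 (0.051) or without Rk1 replicate 1 (0.057), and it was abundant enough to test only through the Rk1 libraries. Col4a5 was at 56.5 and 62.6 CPM untreated and 71.5 and 65.7 CPM with Rk1 (0.21 ± 0.07, adjusted p = 0.067). It passed with robust dispersions (0.034) but not by DESeq2 (0.22). Its log2 fold change was 0.135 without untreated replicate 1 and 0.273 without untreated replicate 2.

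Col4a4 and Col4a3 stand head to head, 373 bases apart in the deposited annotation, and share the stretch between them as a promoter region that serves both directions. The 250 bases before each start, from RefSeq on GRCr8, are shown because both genes start from this single stretch. Each sequence is written 5′ to 3′ on its own gene's strand, and capitals mark the 88 bases that lie in both windows, as reverse complements of each other.
Col4a3, chr9:91323740-91323989, plus strand: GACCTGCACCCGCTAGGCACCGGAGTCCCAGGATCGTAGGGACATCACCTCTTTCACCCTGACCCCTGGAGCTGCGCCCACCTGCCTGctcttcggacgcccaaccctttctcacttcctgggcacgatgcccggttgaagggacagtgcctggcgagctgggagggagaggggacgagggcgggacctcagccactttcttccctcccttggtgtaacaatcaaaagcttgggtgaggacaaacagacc
Col4a4, chr9:91323578-91323827, minus strand: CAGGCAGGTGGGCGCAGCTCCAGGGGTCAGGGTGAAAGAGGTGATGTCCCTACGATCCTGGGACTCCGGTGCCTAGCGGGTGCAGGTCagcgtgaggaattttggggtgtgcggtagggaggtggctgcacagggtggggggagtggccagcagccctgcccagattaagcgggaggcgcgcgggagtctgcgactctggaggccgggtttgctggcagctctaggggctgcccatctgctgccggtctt
The starts in that build have 412 bases between them. Neither window holds the other motifs searched, and 1 GGGCGG match lies in the Col4a3 window outside the shared bases. Per kilobase of exon Col4a4 stood 24.2 and 31.9 times above Col4a3 in untreated and 10.1 and 15.5 times above it in Rk1 libraries, so counts from the 2 sides of the region were far from equal in all libraries. Other pairs of collagen genes lie close together with both members tested. Col3a1 and Col5a2 stand tail to tail 33.3 kb apart and fell by 0.88 and 0.34 on the log2 scale, and Col6a1 and Col6a2 are described above.

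A further 19 members had too few counts to test. Of these, 8 had no count in any library, and the others had at most 7. Col4a1 and Col4a2, the chains of the type IV network found in most basement membranes, were nearly undetected, Col4a1 with 0, 0, 0 and 2 counts and Col4a2 with 4, 2, 2 and 2 counts (untreated 1 and 2, then Rk1 1 and 2). Col7a1, the anchoring fibril chain of skin, had 4, 2, 7 and 2 counts. Col2a1 and Col10a1, chains of cartilage, had 2 counts or fewer in each library. A count of 0 allows up to 0.148 to 0.167 CPM, taken as 3 counts, and this covers counting error only, so differences in these genes were not detectable at this depth. Col4a1, Col2a1 and Col10a1 were picked for mention after their values were seen. Another 5 rows are described as collagen-like chains under another wording and stand outside the rule, with at most 1 count in a library.

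Set side by side per kilobase of exon, untreated levels covered a wide range. Col1a1 was at 2069 CPM per kilobase, Col3a1 at 1017, Col5a2 at 299.6, Col6a2 at 109, Col5a1 at 93.9 and Col12a1 at 72.4. Col6a1 (49.9), Col11a1 (38.6), Col18a1 (33.9), Col1a2 copy A (24.5), Col16a1 (21.6), Col8a1 (18.03) and Col8a2 (17.7) followed, all in CPM per kilobase. With Rk1 the first 3 places were held by the same genes, at 1376, 551 and 237 CPM per kilobase. Behind them Col6a2 at 84.6 ± 1.94 (SD) and Col5a1 at 84.3 ± 2.95 did not differ beyond their spread, and Col1a2 copy A followed at 82.6 ± 17.4, which reaches both. Exon lengths come from the deposited table, and isoforms are not separated. The level of Col1a2 copy A, and so its place, is uncertain because reads that match both copies can be divided or dropped.

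**Figure D4:**
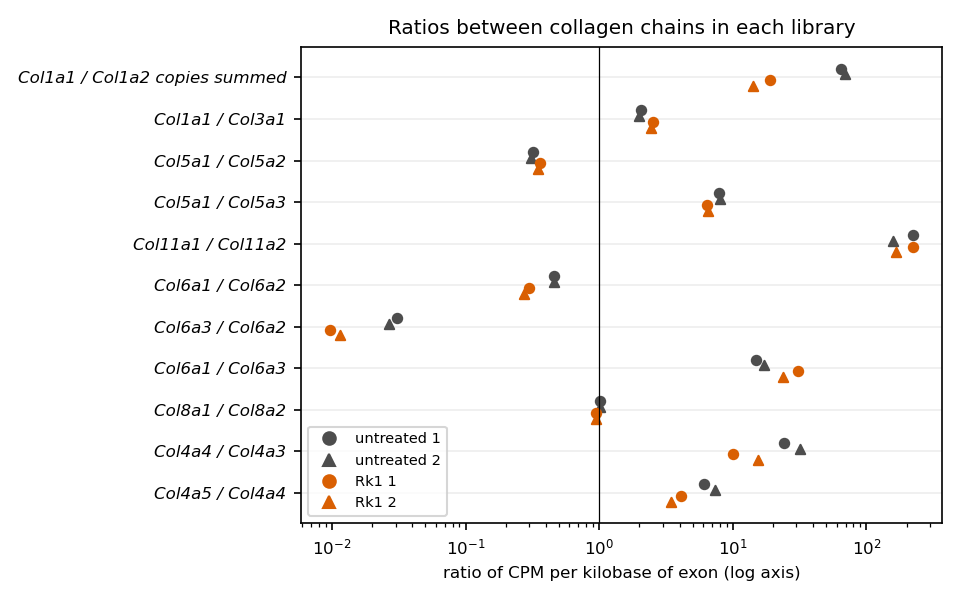
Ratio of CPM per kilobase of exon between pairs of collagen chains (x axis, log scale) in each library, grey for untreated and orange for Rk1. Col8a1 to Col8a2 lies close to 1 in all libraries, while Col6a1 to Col6a2 moves from 0.457 and 0.460 to 0.298 and 0.276, and Col11a1 to Col11a2 overlaps between groups.

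Collagen chains need a series of partners before they become fibres, and these genes were read from lists in the order of the pathway. Of 73 listed genes 70 were matched and 52 tested, of which 26 fell and 8 rose, and their median log2 fold change was -0.20, beside 0.00 for all tested genes. Of all tested genes 10.5% were called lower and 11.5% higher, so the share of rises in the lists lies near that of all genes. Leaving out 1 library gave 18 to 23 lower and 3 to 6 higher, the 3 without untreated replicate 2. In the prolyl hydroxylation list, whose enzymes stabilise the helix, 4 of 8 fell and 2 rose. P4ha2, a catalytic subunit of prolyl 4-hydroxylase, rose from 175 ± 9.39 to 251 ± 7.08 CPM (0.51 ± 0.05, adjusted p = 7.1e-04), while Ppib, a proline isomerase, and P3h1, a prolyl 3-hydroxylase, fell by 0.38 and 0.43 on the log2 scale. Of 4 tested genes for lysyl hydroxylation and glycosylation, Plod1 and Plod2 rose, Plod1 by 0.60 ± 0.05 (adjusted p = 2.6e-04). In each of these lists the rises numbered 1 without untreated replicate 2, and in the prolyl hydroxylation list also when either Rk1 library was left out.

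Genes for folding and export fell in 8 of 10 cases. Serpinh1, the collagen chaperone HSP47, was at 2601 ± 7.84 CPM untreated and 1714 ± 15.8 CPM with Rk1 (-0.60 ± 0.03, adjusted p = 6.0e-05). Fkbp10, an isomerase of the endoplasmic reticulum, fell by 0.45 on the log2 scale and Sparc, a collagen-binding glycoprotein, by 0.43. In that list 5 genes fell without untreated replicate 1 or without Rk1 replicate 2. Propeptide cleavage had 3 of 6 lower, Tll1 (-0.86 ± 0.18), Pcolce (-0.20) and Pcolce2 (-0.20), but DESeq2 called 1 gene of the list lower, and at most 1 was called lower when any 1 library was left out. Crosslinking enzymes went both ways. Loxl3 (-0.57 ± 0.06) and Lox (-0.44 ± 0.04) fell, and Loxl4 (0.52 ± 0.06) and Loxl2 (0.19 ± 0.04) rose, with 1 gene of the list called higher when either untreated library or Rk1 replicate 1 was left out.

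Fibril organisers, the small proteoglycans and glycoproteins that space or bridge fibres, fell in 6 of 7 cases with a median log2 fold change of -0.99. Among them were tenascin Tnc, which fell from 537 ± 25.7 to 267 ± 8.97 CPM (-1.01 ± 0.05, adjusted p = 4.2e-05), lumican Lum (-1.37 ± 0.13) and decorin Dcn (-0.98 ± 0.10). Fewer genes of the list were called lower when either untreated library or Rk1 replicate 1 was left out. Of 7 tested collagen receptors, the integrin subunits Itga11 (-0.63 ± 0.06, adjusted p = 8.2e-04) and Itga1 (-0.37 ± 0.06) fell and Itgb1 (0.17 ± 0.04) rose. The rise of Itgb1 was not called when either untreated library or Rk1 replicate 2 was left out. The kinase receptors Ddr1 and Ddr2 did not pass, at 95.5 ± 3.56 and 95.4 ± 4.996 CPM and at 211 ± 6.58 and 196 ± 9.06 CPM. Among 5 tested degradation genes, the protease inhibitor Timp1 fell by 0.37 ± 0.03 (adjusted p = 3.9e-04) and Timp2 rose by 0.21 ± 0.04 (adjusted p = 0.0093), though not without untreated replicate 2. The membrane protease Mmp14 did not pass, with 327 ± 19.5 and 337 ± 4.80 CPM.

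**Figure D5:**
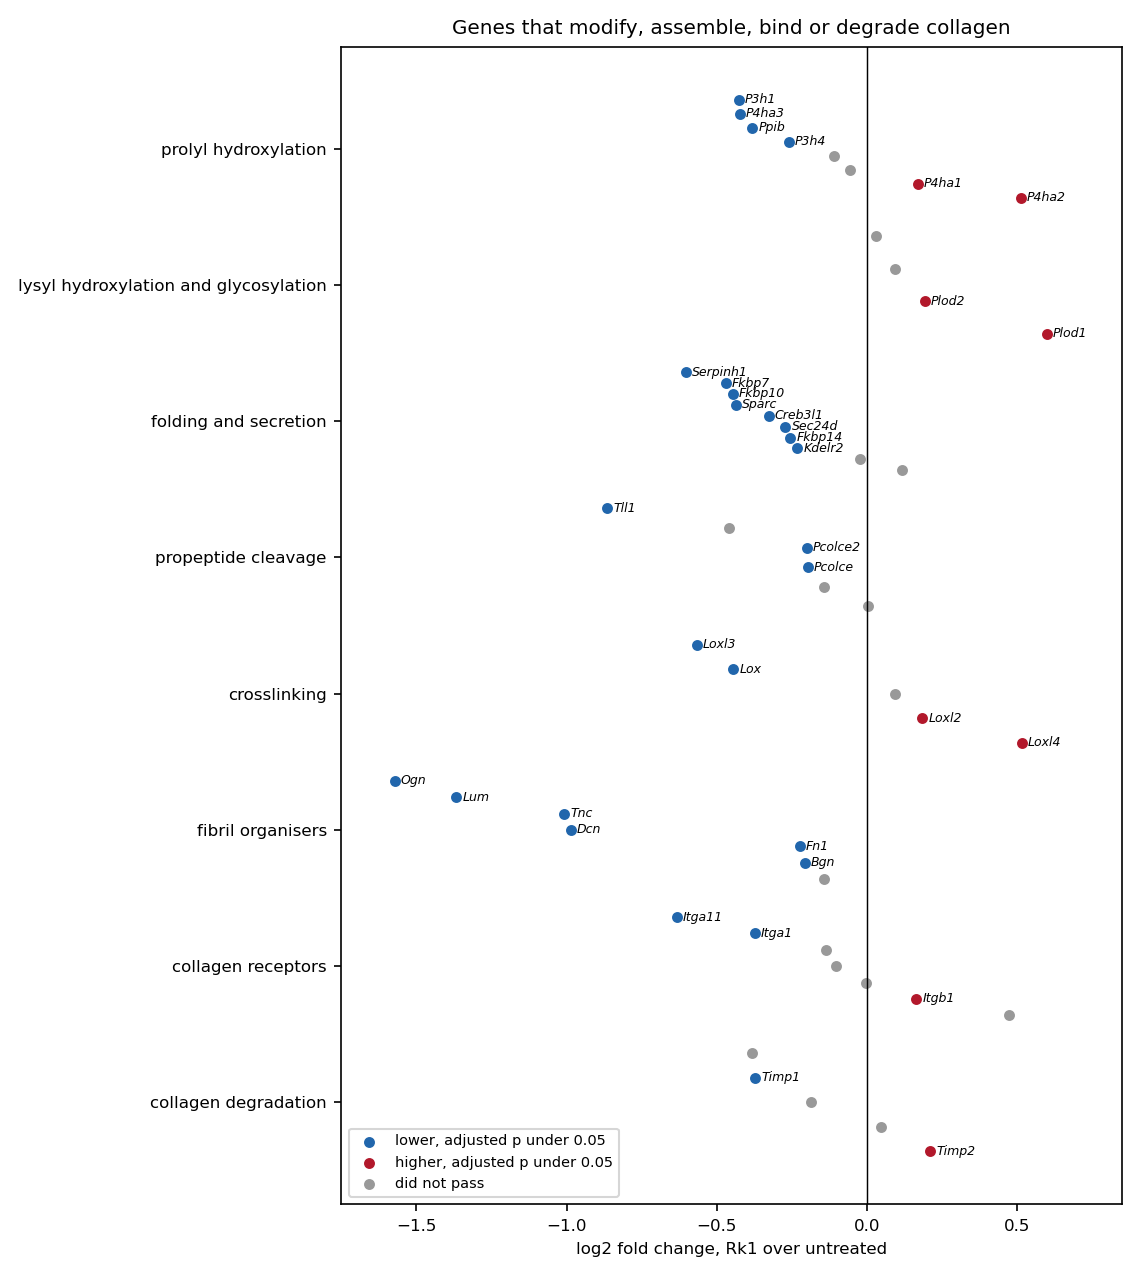
Log2 fold change of Rk1 over untreated (x axis) for the 52 tested genes of 8 lists of collagen modifiers, partners and receptors, 1 point a gene, blue for called lower, red for called higher and grey for those that did not pass. Serpinh1 and 7 other folding and secretion genes are blue, and the crosslinking genes lie on both sides.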

How the data were processed

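Total RNA of HSC-T6 cells was sequenced as 4 libraries, 2 untreated and 2 given Rk1, grouped by the treatment label. The authors deposited raw counts per Ensembl gene with exon lengths, symbols and Rnor_6.0 positions, per the file headers. HISAT2 and HTSeq were used, per the submitters' processing notes, with versions, strand setting and treatment of multi-matching reads not given in the sources used here. No tested member overlaps another gene with counts in the table.

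Counts were filtered with filterByExpr (minimum count 10, minimum total 15), scaled by TMM and tested with edgeR 4.0.16 (quasi-likelihood F-test, two-sided, 2 residual degrees of freedom, Benjamini-Hochberg over 12316 genes, threshold 0.05). A standard error is the log2 fold change divided by the square root of F. CPM use TMM-scaled totals, levels per kilobase use the deposited exon lengths in place of the planned coding lengths, and library totals were 18008586 to 20430930 counts. Replicates differed beyond counting noise (chi-square over degrees of freedom 4.47 untreated, 4.52 with Rk1). The edgeR fit with the main settings was tested on simulated counts, and the other steps were not. Alternatives were DESeq2 1.42.0, limma-voom (limma 3.58.1), other scalings and filters, robust dispersions, a replicate block and leaving out each library. Every tested member is named, untested ones from 3 counts in a library, and of each further list up to 3 called genes with the smallest adjusted p. Ddr1, Ddr2, Mmp14, the fourth crosslinking gene and the fit of the stellate cell markers were added after their values were seen. The members and lists were chosen with earlier results of these data known. Promoter sequences are RefSeq's on GRCr8.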

Additional observations from a re-analysis of the deposited data

How the results depend on the processing

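Of 305 values of the 26 tested members under 12 alternatives, 285 kept their direction and side of the threshold, and 18 members kept both throughout. Across all genes, DESeq2 called 809 lower and 837 higher, and leaving out 1 library gave 859 to 936 lower and 824 to 1110 higher, each with fewer libraries in the fit. The 8 higher genes of the collagen partner lists became 3 to 6 with 1 library left out. Without Col1a1, the change in the share of all counts on collagen genes was -0.295 percentage points, beside -0.694, while the ratio of Rk1 to untreated was 0.674, beside 0.671. Members that did not pass changed sign when 1 library was left out, over log2 ranges of -0.35 to 0.44 for Col9a3, -0.33 to 0.16 for Col20a1, -0.436 to 0.039 for Col24a1 and -0.057 to 0.07 for Col16a1, and the cause was not tested. With the replicate number as a block, 15 members were lower and 3 higher, and 1538 genes were lower and 1676 higher in all. The labels do not say that the numbers pair the libraries, and differences between replicates correlated at 0.0926 between groups across genes. The main fit left out genes without about 10 counts in at least 2 libraries, so it could not detect changes in them.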
